A study of Mus musculus with 8 samples.

Results

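The genes described here are 69 odorant receptor (OR) genes of mouse chromosome 7, chosen by their symbols: Olfr followed by digits only, with numbers from Olfr290 to Olfr310 (17 genes) or from Olfr467 to Olfr541 (52 genes). They are 69 of the 19928 genes tested and of the 1015 OR genes with such a symbol on the array, which leaves 946 other OR genes for comparison. Every one of the 69 had exactly 1 transcript cluster of its own, was matched to the RefSeq gene table by its Entrez identifier and was placed there on chromosome 7. No filter on low values was used, so none was lost. Their older family names (MOR numbers) put 68 of them in class II. The exception is Olfr504, whose older name is MOR40-15, a class I family, so the label of class II holds for all genes but that 1. A further 6 receptor genes of these number ranges in the gene table (Olfr487, Olfr503, Olfr506, Olfr519, Olfr533 and Olfr538) had no cluster of their own and are not among the 69.

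The RNA came from olfactory mucosa of 8 mice at postnatal day 3, on a mixed 129 x C57BL/6J background, and each mouse gave 1 Affymetrix Mouse Gene ST array. The 4 mutants were 123Cre:Lhx2(fl/fl) conditional knockouts (cKO), and the 4 littermate controls were 2 Lhx2(fl/+) mice without Cre (controls 1 and 2) and 2 123Cre:Lhx2(fl/+) mice with it (controls 3 and 4), so every mouse carried at least 1 floxed Lhx2 allele. The 123Cre transgene acts from the immature stage of the olfactory sensory neuron (OSN) onward and removes the first exons of Lhx2, and the deletion is partial, so that the mutant mucosa still held OSNs with intact Lhx2 along with basal cells that the transgene does not reach. Mouse numbers only name the arrays.

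OR genes encode G protein-coupled receptors that bind odorants in the cilia of OSNs. A mature OSN expresses 1 allele of 1 OR gene, so that the amount of an OR mRNA in whole mucosa depends mainly on how many OSNs have chosen that gene. Class I receptors resemble those of fish, whereas class II receptors make up most of the mammalian repertoire and lie in clusters on many chromosomes. Lhx2 encodes a LIM-homeodomain transcription factor whose binding motif, a TAAT core, recurs upstream of OR genes and in their enhancers. In RNA from whole mucosa, fewer cells expressing a gene and less mRNA per cell cannot be told apart.

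The sequences before the annotated starts of 4 of the genes are shown because Lhx2 is a homeodomain protein. Olfr292 and Olfr303 were picked after their values were seen, so these 4 do not stand for the rest. They are from RefSeq, assembly GRCm38.p6, 250 bases each, written 5′ to 3′ on the strand of the gene, and capitals mark TAATTA or TAATTG, a homeodomain core, on either strand (on the other strand TAATTG reads CAATTA, and TAATTA reads the same). Olfr301 and Olfr292 lie in the same run of genes, and both had mRNA at 35.3% of the control level or less (36.3% and 45.8% without mutant 2). Neither of these genes was called at an adjusted p under 0.01. Olfr303 lies between other genes of the same run and was at 52.2% of control (66.1% without mutant 2), and Olfr478 had the largest called difference among Olfr467 to Olfr541 apart from Olfr541.
Olfr301, chr7:86403599-86403848, plus strand: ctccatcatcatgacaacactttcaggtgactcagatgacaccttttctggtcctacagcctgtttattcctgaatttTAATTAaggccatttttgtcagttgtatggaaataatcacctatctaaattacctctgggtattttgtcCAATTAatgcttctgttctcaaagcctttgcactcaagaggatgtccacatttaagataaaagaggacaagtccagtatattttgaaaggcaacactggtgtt
Olfr292, chr7:86688091-86688340, plus strand: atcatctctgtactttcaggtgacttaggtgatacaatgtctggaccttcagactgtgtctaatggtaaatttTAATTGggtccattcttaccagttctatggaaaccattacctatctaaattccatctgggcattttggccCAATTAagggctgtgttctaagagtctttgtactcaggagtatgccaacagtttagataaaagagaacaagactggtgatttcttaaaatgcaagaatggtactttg
Olfr303, chr7:86395536-86395785, minus strand: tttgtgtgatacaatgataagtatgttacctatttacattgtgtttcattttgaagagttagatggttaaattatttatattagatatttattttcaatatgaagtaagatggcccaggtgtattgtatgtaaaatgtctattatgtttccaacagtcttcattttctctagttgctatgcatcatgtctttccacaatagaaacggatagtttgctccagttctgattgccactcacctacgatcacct
Olfr478, chr7:108033968-108034217, minus strand: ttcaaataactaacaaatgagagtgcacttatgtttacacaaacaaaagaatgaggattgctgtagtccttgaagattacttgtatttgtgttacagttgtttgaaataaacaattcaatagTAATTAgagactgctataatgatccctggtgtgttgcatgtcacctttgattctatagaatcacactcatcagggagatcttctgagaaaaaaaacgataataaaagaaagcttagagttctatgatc

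The windows of Olfr301 and Olfr292 were 75.7% identical over 243 aligned bases, whereas the other pairs among these 4 windows were 54.7% to 60.0% identical. Both hold a core that begins 172 bases (Olfr301) or 177 bases (Olfr292) before the start and another that begins 103 or 107 bases before it, so both cores lie at like places, and at the first of them Olfr301 has TAATTA and Olfr292 has TAATTG. The window of Olfr478 has 1 core, 128 bases before the start. No core was found in these letters for Olfr303. Windows were listed for 60 of the 69 genes, and in 53 of those the annotated start is the ATG itself, which means that the model holds coding sequence only and the window need not be a promoter. TAATTA or TAATTG was found in 23 of the 60 windows (38.3%), in 36.5% of the 884 windows of other OR genes and in 11.3% of all 32851 windows of that length. One of these cores was in 7 of the 18 windows of genes that fell significantly and in 16 of the 42 windows of the rest. Olfr298, which had the largest difference of the 69 genes (-2.12), had a window without a core. So did Olfr293, Olfr299 and Olfr295, whereas the window of Olfr469, which differed by -0.48, held several. A further motif, CCCNNGGG, the core bound by the Olf/Ebf proteins, was found in 2 windows (3.33%), those of Olfr523 and Olfr536, against 2.71% of the other OR windows and 11.8% of all windows.

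The arrays were first examined as a whole. Array medians lay between 8.82 and 8.89 on the log2 scale. Lhx2 itself read 13.03, 12.55, 13.01 and 13.02 in cKO mice 1 to 4, against 13.14, 13.09, 13.20 and 13.13 in controls 1 to 4, a difference of -0.24 (SE 0.11, adjusted p = 0.337 by limma). Its cluster combines all exons and only the first are floxed, so it checks the genotype labels weakly. Omp, which encodes the olfactory marker protein of mature OSNs, fell by 0.97 on the log2 scale (SE 0.14, adjusted p = 0.00605). Of 19 mature OSN markers measured, 6 fell, 17 were below all controls in every mutant, and the mean of the list read 11.54, 10.92, 11.48 and 11.41 in cKO mice, against 11.98, 12.04, 12.04 and 12.08 in controls. Of 14 immature OSN markers 1 fell (Stmn4, difference -0.30), and 5 were below all controls in every mutant, beside 8.43% of all genes. The mean of this list was 12.14 to 12.33 in cKO mice and 12.34 to 12.42 in controls. None of the 8 sustentacular, 7 respiratory ciliated, 5 Bowman's gland, 6 macrophage and 2 blood markers measured passed the test. Omp and the other defining markers of OSNs were bright on every array, as the tissue label requires. Mouse 2 of the cKO group stood apart from the other mutants in OR and mature OSN markers. It is the only female mutant by its Xist and Y-linked mRNAs, and the only mutant whose sample title starts with B, a letter whose meaning is not stated. Medians over the 69 genes and over their ranges, runs and families are therefore given with and without it, as are single genes whose difference moved by more than 1.5 times.

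The abundance of mRNAs from these genes was lower in cKO mice nearly throughout. A gene was called when its adjusted p was under 0.01 by limma with Benjamini-Hochberg adjustment over all genes tested, and this fit gives every adjusted p below unless another is named. Of the 69 genes, 18 fell (26.1%) and 0 rose, beside 2.07% lower and 0.0602% higher among all genes tested. At an adjusted p under 0.05, 52 fell, beside 5.17% of all genes. In 58 of the 69 (84.1%) every mutant array lay below every control array, beside 8.43% of all genes. The fitted difference was below 0 for 68 of them, and 0 of them were higher by limma or by the methods' t-test when p was left unadjusted at a threshold of 0.05.

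The median log2 difference over the 69 genes was -0.97, or 50.9% of control, with quartiles of -1.35 and -0.67, while the median over all genes tested was 0.03. The other 946 OR genes gave a median of -0.85, with 288 called lower (30.4%) and 757 with every mutant below every control (80.0%), so the shares called and without overlap were close to those of the chromosome 7 genes. Averaged over the 69 genes, the arrays read 7.48, 6.59, 7.36 and 7.38 in cKO mice 1 to 4, and 8.21, 8.28, 8.15 and 8.26 in controls 1 to 4. The mutants were the lower group without overlap, and mutant 2 was far below the other 3. The means were 7.20 ± 0.41 in cKO mice and 8.22 ± 0.06 in controls (SD, n = 4 each). No test was run on these averages, because the genes were chosen with results of these arrays in view.

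Mutant 2 was the lowest of the 8 arrays for 60 of the 69 genes. Without it the median difference was -0.75, or 59.3% of control, and the remaining mutants lay below all controls in 58 genes. Such separation is easier to reach with fewer mutants, and its share over all genes was not computed without mutant 2. The number called was then 48, and it was 18 without mutant 1, 1 without mutant 3, 2 without mutant 4 and 1 without each of the 4 controls in turn, so the count changed with the array left out. The share of all genes called was not computed for these fits, so whether the change was particular to the 69 genes was not tested. Without mutant 1, 14 of the 18 were the same genes as with all arrays. Olfr494 alone passed in all 8 of these fits. The SD among mutants was larger than that among controls for 63 genes, with medians of 0.42 among mutants and 0.15 among controls. The median SE of a difference was 0.19, against 0.07 over all genes.

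**Figure D1:**
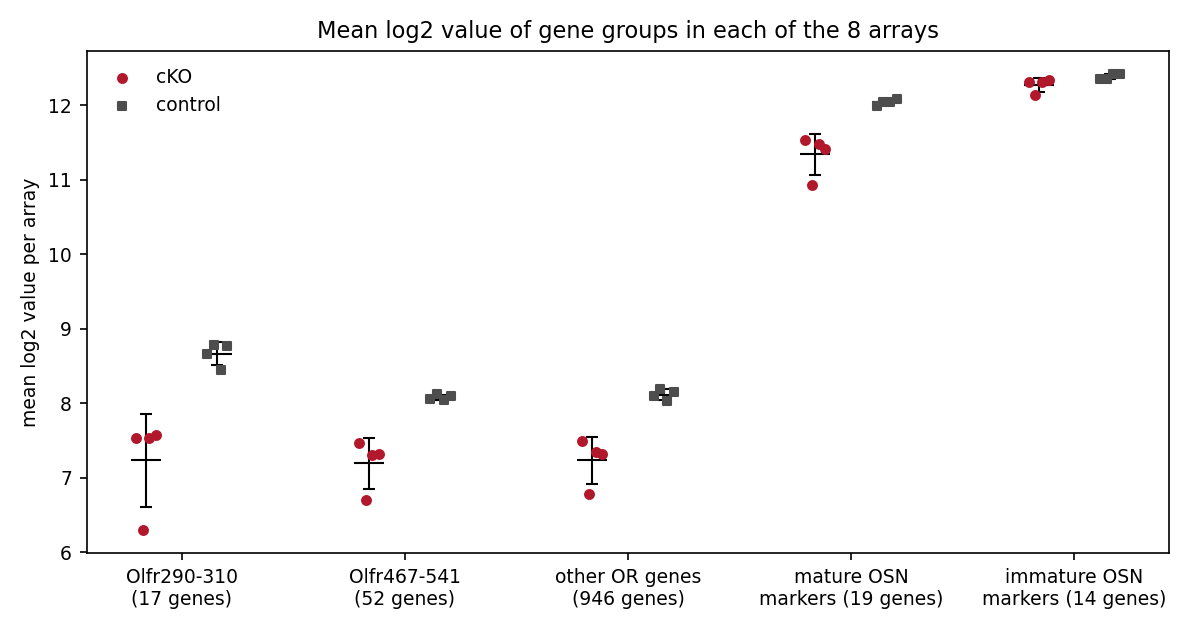
Mean log2 value per array (vertical axis) over the genes from Olfr290 to Olfr310, those from Olfr467 to Olfr541, the other 946 OR genes, and the mature and immature OSN marker lists. Each point is 1 mouse (red circles cKO, grey squares control), the bar is the group mean with its SD (n = 4), and in all 5 groups of genes the mutants lie below the controls, with mutant 2 lowest.

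The first range, Olfr290 to Olfr310, had the larger differences. Its 17 genes gave a median of -1.60, or 33.0% of control, and the 52 genes from Olfr467 to Olfr541 gave -0.91, or 53.1% of control. Without mutant 2 these medians were -1.30 and -0.74. The averages of the first range were 7.52, 6.29, 7.53 and 7.58 in cKO mice 1 to 4, and 8.66, 8.78, 8.45 and 8.76 in controls 1 to 4. Those of the second range were 7.47, 6.69, 7.31 and 7.31 in cKO mice, and 8.06, 8.12, 8.05 and 8.09 in controls.

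Within each array, the mean of Olfr290 to Olfr310 minus the mean of Olfr467 to Olfr541 was 0.06, -0.40, 0.22 and 0.27 in cKO mice 1 to 4, and 0.60, 0.66, 0.40 and 0.67 in controls 1 to 4. The 4 mutants were all below the 4 controls in this measure, which any shift common to both ranges leaves unchanged. The group difference was -0.55, and -0.40 without mutant 2. Among the 3 male mutants and 2 male controls it was -0.35. Among mice with a title letter of A (3 mutants, 2 controls) it was -0.35, and with B (1 mutant, 2 controls) it was -1.03. Background signal compresses the difference of dim genes, so genes with a mean of at least 7.5 over the 8 arrays were also set side by side. The 14 such genes of the first range had a median of -1.62, and the 35 of the second range one of -1.02 (-1.30 and -0.81 without mutant 2). As for calls, 4 of 17 genes in the first range (23.5%) and 14 of 52 in the second (26.9%) passed the threshold. The order of these shares changed with the setting, to 13 of 17 (76.5%) and 35 of 52 (67.3%) without mutant 2, and to 3 of 17 and 1 of 52 after the mature OSN markers were subtracted array by array. The median SE was 0.28 in the first range and 0.17 in the second.

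Along chromosome 7 the 69 genes fall into 5 runs of neighbours, which are separated by 12, 70, 108 and 331 genes that encode no OR. Olfr290 and Olfr291 (median -1.55) stood beside the run of 15 genes from Olfr292 to Olfr310 (median -1.63, 4 called). Then came Olfr520 and Olfr521 (median -0.47), the 38 genes from Olfr467 to Olfr518 (median -0.89, 11 called) and the 12 genes from Olfr522 to Olfr541 (median -0.97, 3 called). Without mutant 2 the medians of the 5 runs, in the same order, were -1.10, -1.30, -0.45, -0.73 and -0.76. Neighbours could differ widely. In the second run Olfr308 (-0.41, and -0.21 without mutant 2) lay next to Olfr309 (-1.81), and in the fourth run Olfr514 (0.06, and -0.0051 without control 2) next to Olfr516 (-1.01), as the plot of differences along the chromosome shows.

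**Figure D2:**
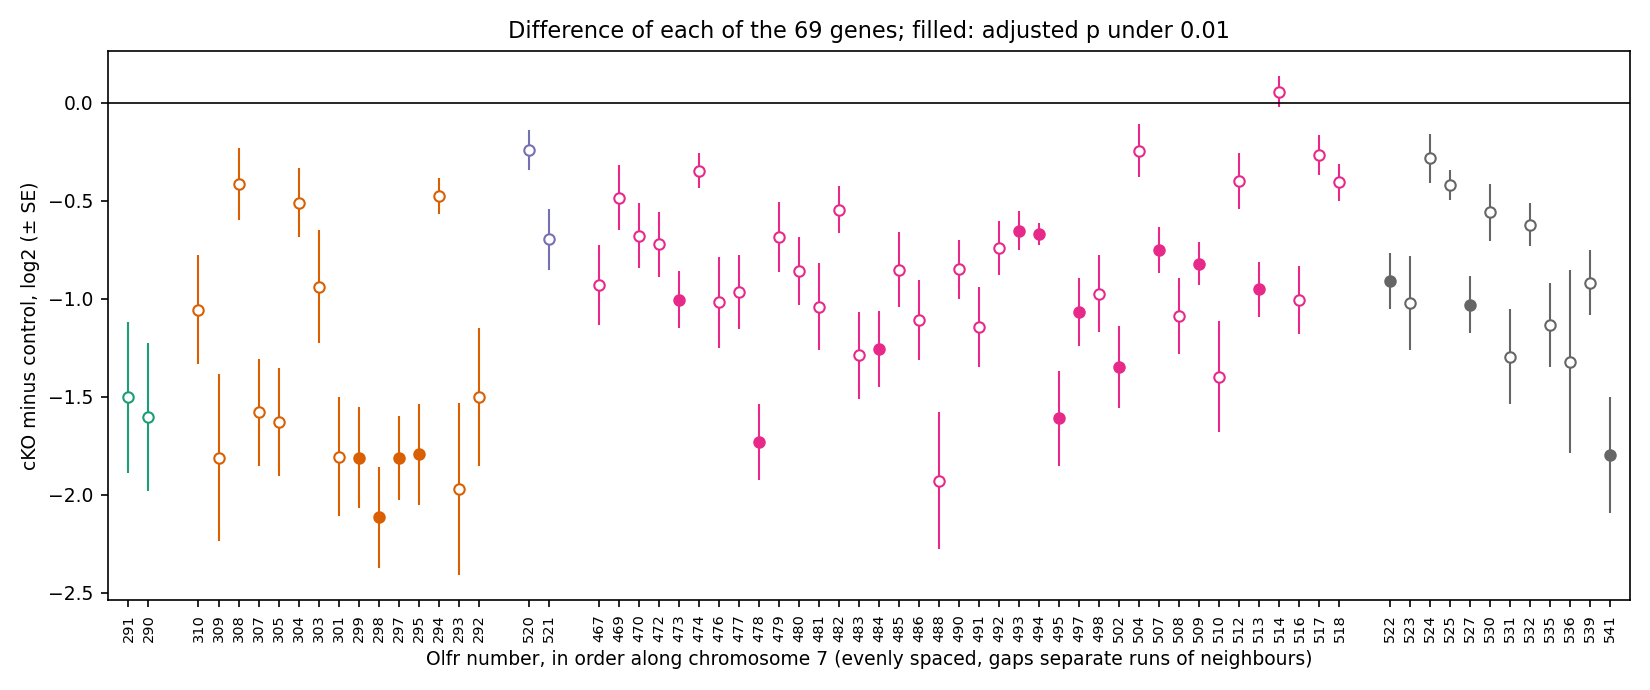
Log2 difference, cKO minus control, with its SE (vertical axis) for each of the 69 genes in their order along chromosome 7 (horizontal axis, evenly spaced and not to scale). Colours and gaps separate the 5 runs, filled points passed an adjusted p under 0.01, and all points lie below 0 except Olfr514.

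Grouped by older family names, the largest differences belonged to MOR219, MOR220 and MOR221, 11 genes that all lie between Olfr292 and Olfr307. Their median was -1.79, or 28.9% of control (-1.46 without mutant 2), 4 were called lower, and 10 had every mutant below every control. Their average was 7.15, 6.05, 7.16 and 7.19 in cKO mice 1 to 4, against 8.44, 8.56, 8.20 and 8.53 in controls 1 to 4. The smaller differences in this group were those of its dimmest genes, Olfr294 (-0.47, control mean 6.07) and Olfr304 (-0.51, control mean 6.46). The other 6 genes of the first range, from other families, had a median of -1.28 (-0.89 without mutant 2) and 0 calls.

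The largest family, MOR204, with 29 genes all from Olfr467 to Olfr541, had a median of -0.97 (-0.75 without mutant 2) and 9 genes called. The 12 genes of MOR251 to MOR254 had a median of -1.21 (-0.89 without mutant 2), with 2 called and all 12 with every mutant below every control. The 7 genes of MOR101 to MOR104 had a median of -0.70 (-0.60 without mutant 2) with 1 called. The 5 genes of MOR268 had the least, with a median of -0.40 (-0.26 without mutant 2) and 0 called. Of the families found in both ranges, MOR251 gave -1.81 for Olfr309 in the first range and -1.30 to -0.42 for the 4 genes of the second (Olfr525, Olfr527, Olfr531 and Olfr532). Without mutant 2 these were -1.30, and -1.05 to -0.36. MOR104 did not show that order, with -0.94 (SE 0.29) for Olfr303 and -0.41 (SE 0.18) for Olfr308 in the first range and -1.02 (SE 0.24) for Olfr523, its only gene in the second. Without mutant 2 these were -0.60, -0.21 and -0.75. None of the 3 was called, and Olfr303 and Olfr523 lay within 1 SE of each other.

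**Figure D3:**
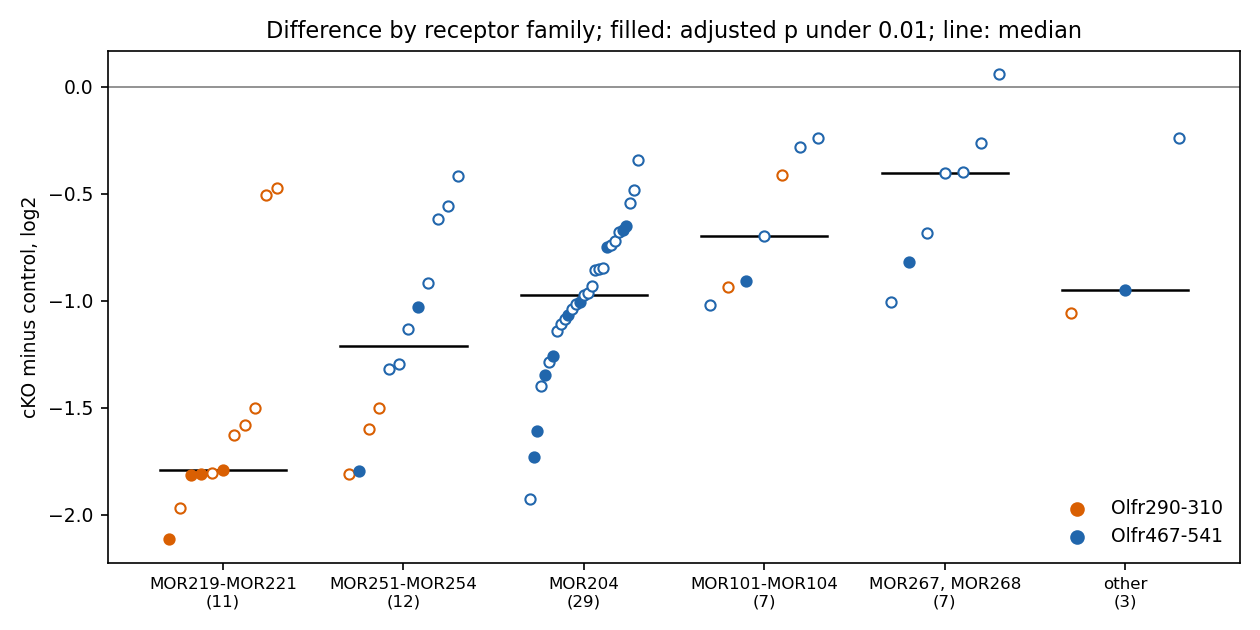
Log2 difference, cKO minus control (vertical axis), of each gene, grouped by older family name with the number of genes in brackets; within a group genes are sorted by value. Orange points are Olfr290 to Olfr310 and blue points Olfr467 to Olfr541, filled points passed an adjusted p under 0.01, and the line is the median, which is lowest in MOR219 to MOR221 (-1.79).

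Olfr298 (MOR219-4) had the largest difference of all 69 genes. It read 7.50, 6.24, 7.44 and 7.35 in cKO mice 1 to 4, against 9.26, 9.39, 9.02 and 9.33 in controls 1 to 4. Every mutant was more than 1 log2 unit below every control, and mutant 2 was more than 1 unit below the other mutants. The difference was -2.12 (SE 0.26, adjusted p = 0.00383), or 23.1% of control, and without mutant 2 it was -1.82.

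Olfr297 (MOR220-3) and Olfr295 (MOR220-1) are 2 of its neighbours. Olfr297 read 7.15, 6.33, 7.35 and 7.34 in cKO mice and 8.92, 8.98, 8.65 and 8.88 in controls. Its difference of -1.81 (SE 0.21, adjusted p = 0.0035) left 28.5% of the control level. Olfr295 read 7.10, 5.86, 7.05 and 7.03 in cKO mice and 8.56, 8.60, 8.34 and 8.71 in controls. Its difference was -1.79 (SE 0.26, adjusted p = 0.00613), or 28.9% of control. In both genes mutants 1, 3 and 4 lay within about 0.2 of one another, at least 1 unit below every control.

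Olfr299 (MOR221-2) read 6.63, 5.33, 6.39 and 6.36 in cKO mice and 8.06, 8.22, 7.68 and 7.99 in controls, a difference of -1.81 (SE 0.26, adjusted p = 0.00609). The groups again did not overlap, and control 3 was the lowest control, as it was for each of Olfr295, Olfr297 and Olfr298. Olfr301 (older names MOR221-1P and MOR221-4 among others), shown above with its upstream bases, read 7.66, 6.28, 7.54 and 7.80 in cKO mice and 9.08, 9.22, 8.86 and 9.35 in controls. Its difference was -1.81 (SE 0.30), and its adjusted p of 0.0104 placed it just outside the threshold, as did that of Olfr305 (MOR219-2, difference -1.63, SE 0.28, adjusted p = 0.0108). Olfr541 and Olfr497 lay just inside it (adjusted p = 0.00996 and 0.00972). Olfr292 (MOR220-2) differed by -1.50 (SE 0.35, adjusted p = 0.043).

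From Olfr467 to Olfr541, the called genes with the largest differences were Olfr541 (MOR253-3), Olfr478 (MOR204-13) and Olfr495 (MOR204-37). Olfr541 read 7.13, 5.62, 6.99 and 6.83 in cKO mice and 8.21, 8.56, 8.37 and 8.62 in controls, a difference of -1.80 (SE 0.30), or 28.8% of control. Olfr478 read 7.66, 6.63, 7.46 and 7.32 in cKO mice and 8.996, 9.03, 9.14 and 8.84 in controls, a difference of -1.73 (SE 0.19, adjusted p = 0.00306), or 30.1% of control. For both genes mutants and controls were at least 1 unit apart. Olfr495 read 8.02, 6.78, 7.69 and 7.94 in cKO mice and 9.23, 9.14, 9.16 and 9.34 in controls, a difference of -1.61 (SE 0.24, adjusted p = 0.00705).

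Other MOR204 genes followed at smaller sizes, and again no mutant reached a control. Olfr502 differed by -1.35 (SE 0.21, 39.3% of control), Olfr484 by -1.26 (SE 0.19, 41.8%), Olfr497 by -1.07 (SE 0.18, 47.7%) and Olfr473 by -1.01 (SE 0.15, 49.8%), with adjusted p-values from 0.00623 to 0.00972. Olfr527 of MOR251 differed by -1.03 (SE 0.15, adjusted p = 0.00605). Not all calls rested on large differences. Olfr494 (MOR204-10) read 7.95, 7.90, 7.99 and 7.79 in cKO mice and 8.50, 8.57, 8.60 and 8.63 in controls. Its SE was the smallest of all the called genes, mutant 2 was not apart from the other mutants here, and the difference of -0.67 (SE 0.06), or 62.9% of control, had the smallest adjusted p of the 69 genes (0.00125). Over the 18 called genes the level in cKO mice ran from 23.1% to 63.7% of control, and without mutant 2 their differences ran from -1.82 to -0.58.

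**Figure D4:**
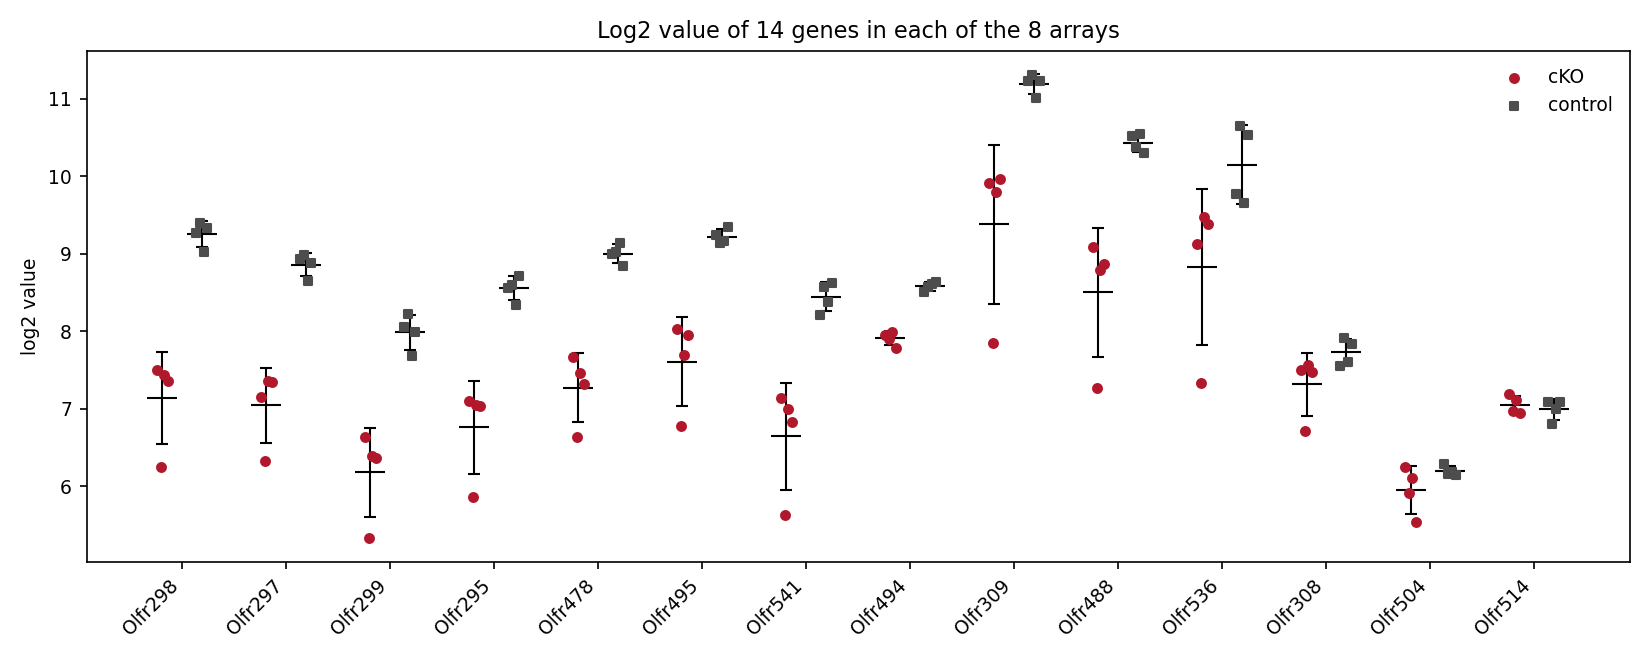
Log2 value (vertical axis) of 14 genes in each of the 8 arrays, cKO as red circles left of control as grey squares, with group mean and SD (n = 4). Mutants and controls do not overlap in the first 11 genes, while in Olfr308, Olfr504 and Olfr514 they do, and mutant 2 is the lowest point of most genes but not of Olfr494, Olfr504 or Olfr514.

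The genes that were brightest in controls did not pass the threshold. In each of the 4 brightest, mutant 2 stood far below the other mutants. Olfr309 (older name MOR251-4P) read 9.91, 7.85, 9.80 and 9.96 in cKO mice and 11.22, 11.30, 11.01 and 11.22 in controls, a difference of -1.81 (SE 0.43, adjusted p = 0.0436). Olfr488 (MOR204-15) read 9.09, 7.26, 8.79 and 8.86 in cKO mice and 10.51, 10.37, 10.54 and 10.29 in controls, a difference of -1.93 (SE 0.35, adjusted p = 0.0144). In both genes all mutants were more than 1 unit below all controls. Olfr293 (MOR221-3) differed by -1.97 (SE 0.44, adjusted p = 0.0342), with cKO values of 8.48, 6.54, 8.54 and 8.75 against control values of 10.10, 10.21, 9.69 and 10.19.

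Olfr536 (MOR252-1) read 9.13, 7.33, 9.47 and 9.38 in cKO mice and 9.76, 10.65, 9.65 and 10.52 in controls. Here the controls were also split, with controls 2 and 4 well above controls 1 and 3, which lay only slightly above the higher mutants. The difference was -1.32 (SE 0.47, adjusted p = 0.198). Without mutant 2 these 4 genes differed by -1.30, -1.52, -1.46 and -0.82. Across the 69 genes, mean level and difference were related with a Spearman rho of -0.47, and across the other 946 OR genes with one of -0.19. This is a description across genes of the same 8 arrays, with no test.

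Some genes differed little. Olfr514 (MOR268-1) was the only gene with a difference above 0, with 7.19, 6.97, 7.11 and 6.94 in cKO mice and 7.09, 6.80, 6.996 and 7.08 in controls (difference 0.06, SE 0.08, adjusted p = 0.808). Its groups overlapped. The difference of Olfr514 was -0.0051 without control 2. Olfr520 (MOR101-1) differed by -0.24 (SE 0.10), Olfr504, the class I gene, by -0.24 (SE 0.13), Olfr517 (MOR268-4) by -0.26 (SE 0.10) and Olfr524 (older name MOR103-14P) by -0.28 (SE 0.12), with adjusted p-values from 0.249 to 0.471. The difference of Olfr504 was -0.34 without mutant 1 and -0.11 without mutant 4, and that of Olfr520 was -0.32 without mutant 1 and -0.15 without mutant 3. Of these, Olfr524 was not dim, at 8.38 in cKO mice and 8.66 in controls.

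Olfr308 (MOR104-1) is a gene that the study also examined in tissue sections. In sections from older mice of this mutant strain, the paper reported fewer OSNs expressing it, although its array change was not significant there. On the arrays Olfr308 read 7.50, 6.71, 7.57 and 7.47 in cKO mice 1 to 4, and 7.55, 7.91, 7.60 and 7.83 in controls 1 to 4. Mutants 1, 3 and 4 lay just below or among the controls, and only mutant 2 was clearly lower. The difference was -0.41 (SE 0.18, adjusted p = 0.344), or 75.2% of control, and -0.21 without mutant 2. Its older family relative Olfr303 differed by -0.94 (SE 0.29, adjusted p = 0.13), and by -0.60 without mutant 2.

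Because mature OSN markers were also lower in cKO mice, the mean of their list was subtracted from the OR values array by array. That mean differed by -0.70, and its members by -1.81 (Faim2) to -0.11 (S100a5). The paper reported a smaller fall of its own, longer list, and OR mRNAs still reduced on average after normalization to it. How far the remainder depends on the list chosen was not tested. This left a median difference of -0.28 over the 69 genes, with 48 of them below 0, 4 called lower and 0 higher, beside 0.472% of all genes called lower in that fit. Only receptor genes were adjusted and all others entered that fit unchanged, so the like comparison is with the other OR genes, given below. The 4 were Olfr295, Olfr297 and Olfr298 of the first range and Olfr478 of the second, with remaining differences of -1.10 (SE 0.15, adjusted p = 0.00967), -1.12 (SE 0.12, adjusted p = 0.0052), -1.42 (SE 0.15, adjusted p = 0.0046) and -1.03 (SE 0.10, adjusted p = 0.00332). In the first range the median after subtraction was -0.90, with 14 of 17 genes below 0, and in the second it was -0.22, with 34 of 52 below 0. Without mutant 2 these medians were -0.20 over the 69 genes, -0.74 in the first range and -0.18 in the second. For the other OR genes it was -0.16, with 604 of 946 below 0 and 44 called lower.

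The subtraction turned the difference of Olfr494 to 0.027 (SE 0.12, adjusted p = 0.953) and left Olfr514 at 0.76 (SE 0.12, adjusted p = 0.0133). The SE of Olfr298 was 0.15 after subtraction, against 0.26 before it, and mutant 2 was the lowest mutant in the marker list too. The part of the mature OSN markers in the result was not tested.

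**Figure D5:**
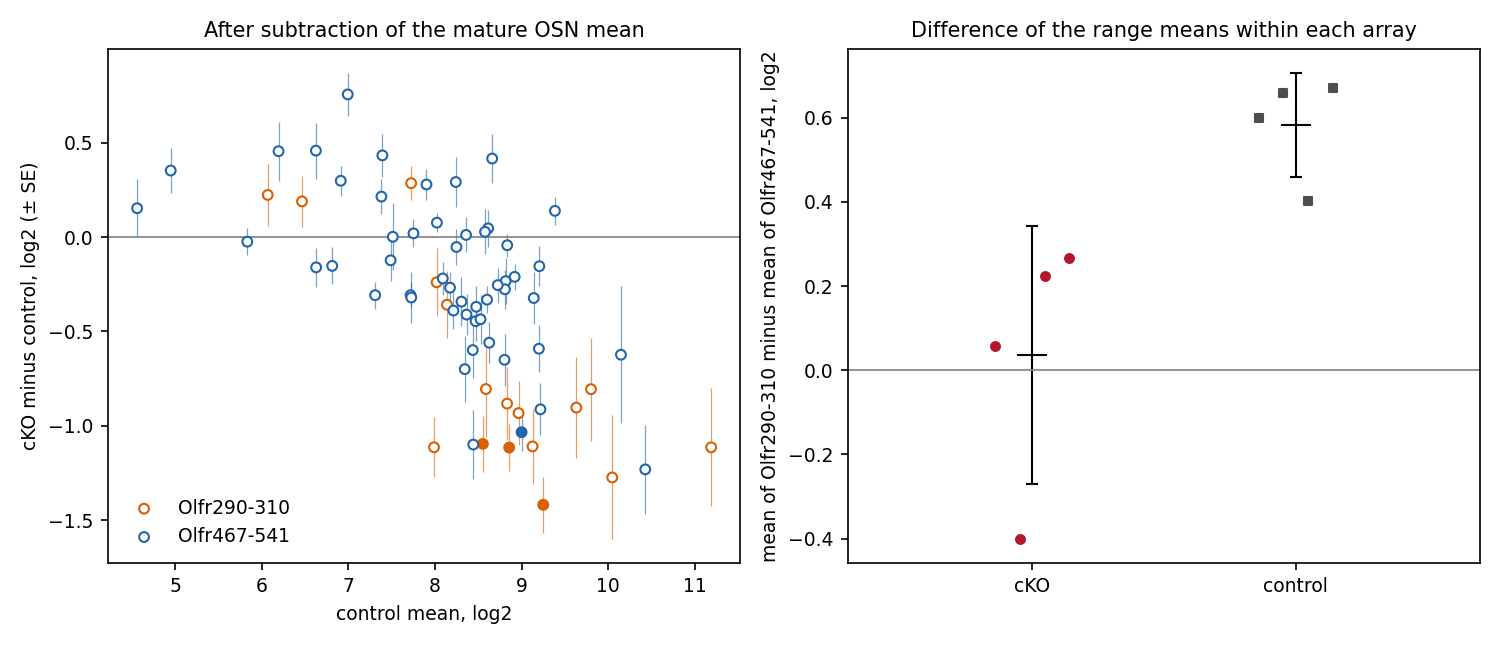
Left, log2 difference, cKO minus control, with its SE after subtraction of the mature OSN marker mean (vertical axis), against the control mean (horizontal axis), with Olfr290 to Olfr310 in orange, Olfr467 to Olfr541 in blue and the 4 genes with an adjusted p under 0.01 filled. Right, the mean of Olfr290 to Olfr310 minus that of Olfr467 to Olfr541 in each array, with group mean and SD (n = 4), where the highest mutant (0.27) lies below the lowest control (0.40).

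The controls were compared by genotype. Over the 69 genes, 123Cre:Lhx2(fl/+) minus Lhx2(fl/+) controls gave a median of -0.05, within a range from -0.46 to 0.46, and 46 of the genes were lower in the controls with Cre. Genotype and title letter coincide among controls and cannot be told apart. Against either pair of controls alone, the mean difference over the 69 genes was -1.04 (Lhx2(fl/+) controls) and -0.999 (123Cre:Lhx2(fl/+) controls), although 0 genes then passed the threshold. As for the floor of the measurement, vomeronasal receptor genes, which OSNs of the main epithelium do not use, had a median level of 5.36 over 162 genes. The cKO mean was under that level for 3 of the 69 genes and the control mean for 2.

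Of 21 genes that act in OR gene transcription, choice and trafficking, 1 fell and 0 rose. The gene that fell was Adcy3, the adenylyl cyclase of the odour response, which also stabilises OR choice, with a difference of -0.86 (SE 0.09, adjusted p = 0.00267). Emx2, another homeodomain factor of OSNs, differed by -0.04 (SE 0.05, adjusted p = 0.756). Ebf4, of the Olf/Ebf family, differed by -0.46 (SE 0.09, adjusted p = 0.0192), and Rtp1, which carries receptors to the surface, by -0.37 (SE 0.08, adjusted p = 0.0327). The 69 OR genes had a median of -0.97, against -0.04 for these 21 genes.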

How the data were processed

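For every array the authors deposited log2 values of 28312 transcript clusters, each a single summary of a gene's probe sets. The submitters' processing notes name Affymetrix Expression Console, with its version, summarization and normalization not given in the sources used here. Residual background compresses the change of dim genes, and the number of arrays (8) limits the precision. RNA was from olfactory mucosa of 4 cKO mice and 4 control mice, grouped by the genotype in the labels and with 1 array per mouse, so that arrays are biological replicates.

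Clusters were named from the platform annotation, in which 21759 clusters had 1 symbol, 1605 had several and 4948 had none. Among those with 1 symbol, 21668 matched a RefSeq gene table (assembly GRCm38.p6), used for older names and neighbours only. For each gene the cluster with the highest mean was kept, which left 19928 genes. The cKO minus control difference was tested with limma 3.58.1 in R 4.3.3 (lmFit and eBayes, two-sided, no covariates, Benjamini-Hochberg over all genes, adjusted p under 0.01) after a test on simulated data. Probes of close paralogs can cross-hybridise, and this was not examined.

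The 69 genes, the marker lists and the list of OR expression genes were chosen with earlier results of these data known. Genes were named by a rule: the 12 largest falls past the threshold without overlap, the 4 smallest adjusted p-values, the 4 highest control means, the 5 highest differences, those nearest the threshold (2 on each side), Olfr308, and a few list genes. Others, such as Olfr292 and Olfr303, were named after their values were seen. Alternatives were the methods' t-test, a threshold of 0.05, quantile normalization, subtraction of the mature OSN list (array by array or as a constant), a filter on dim genes, every cluster kept, title letter or sex as a block, array weights, trended and robust eBayes, 1 control genotype at a time, and each array left out. The study's own mature OSN mRNA list was not used here.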

Additional observations from a re-analysis of the deposited data

Results flagged for a closer look

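In groups of 4 arrays, the array farthest from the others was set against the range of its group by Dixon's criterion, over 58 groups (range averages and named genes, in cKO and in control mice). In 12 groups 1 array stood apart, where chance gives about 1 in 20, and 11 of the 12 were cKO mouse 2, so that these flags are 1 animal seen many times. The average over the 69 genes was 6.59 in that mouse, against 7.36 to 7.48 in the other mutants, and the average from Olfr290 to Olfr310 was 6.29, against 7.52 to 7.58.

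Among single genes, cKO mouse 2 read 6.24 for Olfr298 (other mutants 7.35 to 7.50), 5.86 for Olfr295 (7.03 to 7.10), 6.25 for Olfr473 (6.83 to 6.90) and 6.38 for Olfr305 (7.54 to 7.71). For the bright genes it read 7.85 for Olfr309 (other mutants 9.80 to 9.96), 7.26 for Olfr488 (8.79 to 9.09), 7.33 for Olfr536 (9.13 to 9.47) and 6.54 for Olfr293 (8.48 to 8.75). For Olfr308 it read 6.71 (7.47 to 7.57). The mature OSN marker mean was also lowest in this mouse, at 10.92 against 11.41 to 11.54 in the other mutants, and its Lhx2 value was the lowest of the 8 arrays. Its sex and title letter differ from those of the other mutants, and their part in these values was not tested. The remaining flag was control 3 for Olfr484, at 8.39 against 8.70 to 8.71 in the other controls.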

How the results depend on the processing

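The number of the 69 genes called depended strongly on the setting, whereas the direction of the average did not. The share of all genes called was computed only for the main fit and for the subtraction array by array. For the other settings the counts have no such share beside them. With 18 called (4 from Olfr290 to Olfr310 and 14 from Olfr467 to Olfr541), a threshold of 0.05 gave 52 (12 and 40), the title letter as a block 32 (7 and 25), sex as a block 37 (7 and 30) and array weights 28 (7 and 21). The methods' t-test gave 0 after adjustment (0 and 0) and 46 at an unadjusted p under 0.01 (9 and 37). It was run here with equal variances on the deposited values. The study instead normalized to its mature OSN mRNAs and used a stepwise false discovery rate, so these counts are not those of the study. Either pair of controls alone gave 0 (0 and 0) with fewer samples. Subtracting the mature OSN mean array by array gave 4 lower (3 and 1), and subtracting it as a constant gave 0 lower and 1 higher (0 and 1), the gene higher being Olfr514 (0.76). Quantile normalization (17), the filter on dim genes (15 of the 48 genes it kept), every cluster kept (16) and trended and robust eBayes (19) stayed within 1.5 times the count, and all calls in these 4 fits were lower. Leaving out 1 array gave 1 to 48 calls over all 69 genes, 0 to 13 in the first range and 1 to 35 in the second. The counts were 18 without cKO mouse 1, 48 without cKO mouse 2, 1 without cKO mouse 3, 2 without cKO mouse 4 and 1 without each control.

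The mean difference over the 69 genes was -0.32 after either subtraction of the mature OSN markers, and stayed within 1 SD of -1.02 in the other fits. The mean of the first range minus that of the second changed by less than 1 SD in every alternative run, from -0.62 to -0.40. After either subtraction 20 of the 68 genes with a difference below 0 lay above it, and among the 25 genes named by the rule these were 6: Olfr494 (0.027), Olfr520 (0.46), Olfr504 (0.45), Olfr517 (0.43), Olfr524 (0.42) and Olfr308 (0.29). With 1 array left out, Olfr514 ranged from -0.0051 (without control 2) to 0.0939 (without cKO mouse 4). The cause of these changes was not tested. No paired analysis was possible because the replicate numbers were given in accession order and pair nothing. Signal near the vomeronasal level limits what can be read from the dimmest genes, whose true fold may be larger.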

Other observations

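A further 9 clusters carry the symbols of several genes, among them genes of these number ranges, and were left out of the gene tests. In all 9 every mutant lay below every control, with differences from -1.56 to -0.61 and a median of -0.98. When fitted among the clusters, 2 passed an adjusted p under 0.01. The shares over all clusters were not computed. Several of the 9 carry the same genes, Olfr541 and Olfr539 among them, so they are not separate readings. Such a cluster reads several receptor mRNAs at once. The cluster shared by Olfr486 and Olfr487 read 9.08, 7.78, 8.99 and 9.10 in cKO mice and 10.39, 10.38, 10.06 and 10.36 in controls, a difference of -1.56 (SE 0.28). The cluster of Olfr482, Olfr506 and Olfr507 differed by -1.03 (SE 0.15), beside -0.54 for the own cluster of Olfr482, which was dim, and -0.75 for that of Olfr507.

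The cluster shared by Olfr514, Olfr516, Olfr517, Olfr518 and Olfr519 read 7.34, 6.84, 7.02 and 7.27 in cKO mice and 7.94, 7.89, 8.05 and 7.77 in controls, a difference of -0.80 (SE 0.11) and lower in 4 of 4 mutants. The own clusters of its members differed by 0.06 (Olfr514, and -0.0051 without control 2), -1.01 (Olfr516), -0.26 (Olfr517) and -0.41 (Olfr518). The shared cluster also reads Olfr519, which had no cluster of its own, so its difference cannot be assigned to a single gene.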
